A study of Arabidopsis thaliana with 24 samples.

Results

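The iron deficiency response of roots of the Arabidopsis thaliana double mutant rglg1 rglg2 was read as the difference between 3 arrays of mutant roots on iron-deficient medium (-Fe) and 3 arrays of mutant roots on iron-sufficient medium (+Fe). These 6 arrays were taken by their labels from a series of 24 ATH1 arrays, which covered roots and leaves of the wild type (Col) and of the mutant on both media, with 3 arrays in each of 8 groups. All plants were of ecotype Col, and the mutant carried the lesions rglg1 and rglg2 in both media. They grew at 21 °C in continuous light, were moved at 10 days of age to 40 µM FeEDTA (+Fe) or to a medium with an iron chelator of the ferrozine type at 100 µM (-Fe) for 3 days, and were 13 days old when roots were taken. The labels call the 3 arrays of a group biological replicates and do not say how many plants were pooled in each. Only 1 double mutant genotype was measured, and the labels name neither the alleles nor a complemented line.

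RGLG1 and RGLG2 encode RING-type ubiquitin ligases, which attach ubiquitin to other proteins. No probe set with 1 named gene stood for either, so loss of their transcripts was not analysed here. RGLG5, a related gene, had a log2 change of 0.20 ± 0.09 on -Fe (adjusted p = 0.191).

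Arabidopsis takes up iron by acidifying the soil around the root, reducing ferric iron at the root surface and importing ferrous iron. The roots also secrete coumarins, phenolic compounds that mobilise iron at high pH. A network of basic helix-loop-helix (bHLH) transcription factors, ubiquitin ligases and small peptides switches these genes on when iron runs short. Zinc and manganese carriers respond as well, because the iron importer also admits these metals.

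All values are log2 signals that the deposited table gives relative to the median of the 24 arrays, so 0 is that median and no absolute level can be read. A change is the mean of the 3 -Fe arrays minus the mean of the 3 +Fe arrays, with its standard error (SE) from limma. It was called when the adjusted p (Benjamini-Hochberg, over 17810 probe sets, two-sided) was under 0.05. In bulk root RNA, fewer cells of a type and less RNA per cell cannot be told apart.

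The root label was checked with markers of both tissues. The root hair expansin genes EXPA7 and EXPA18, the 2 measured of 20 root marker genes, had a median of 5.22 log2 units above leaves in the mutant arrays. The 8 measured of 45 photosynthesis genes had a median of -4.47 against leaves. The 3 mutant +Fe root arrays were less alike than the 3 -Fe arrays: the median SD over probe sets was 0.139 on +Fe and 0.075 on -Fe, and the lowest correlation between arrays of the group was 0.934 and 0.981. Replicate 3 of mutant +Fe stood apart from replicates 1 and 2 on the second principal component of the root arrays, at -11 against -25.3 and -26.1. The control probe sets for the 5′ and 3′ ends of transcripts, a sign of RNA quality, also differed between the media: their 5′ minus 3′ difference was 0.01 ± 0.14 (SD, n = 3) on +Fe and 0.21 ± 0.02 on -Fe. Their part in the results was not tested beyond the values given beside them.

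On -Fe, the largest changes in mutant roots were rises. Of 17810 probe sets, 511 were higher (2.87%) and 755 were lower (4.24%), which made 1266 in all (7.11%). A rise of at least 1 log2 unit was called for 104 probe sets (0.584%) and a fall of that size for 37 (0.208%). Among the called changes, 18 rises exceeded 3 log2 units and 0 falls did. The median called change was 0.54 upward and -0.55 downward. The count depended on the arrays used: without replicate 3 of mutant +Fe it was 3315, with 1652 higher and 1663 lower, and without any single other mutant array it lay between 592 and 648. With the 5′ minus 3′ difference as a covariate it was 441, with 239 higher and 202 lower. Falls thus outnumbered rises only slightly without replicate 3 of mutant +Fe, and rises outnumbered falls with the covariate. Falls remained the more numerous without any single other mutant array. The large changes were less affected. Of the 141 called changes of at least 1 log2 unit, 141 were called without replicate 3 of mutant +Fe and 131 with the covariate.

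**Figure D1:**
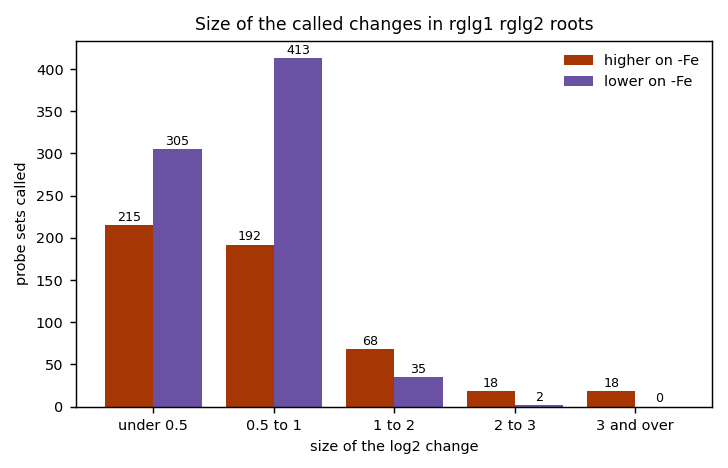
Number of probe sets called higher (brown) and lower (purple) on -Fe in mutant roots, by the size of the log2 change. Falls outnumber rises below 1 log2 unit (305 and 413 against 215 and 192), and the 18 changes above 3 are all rises.

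The largest rise of a named gene was that of S8H (AT3G12900), the scopoletin hydroxylase that makes the coumarin fraxetin. Its log2 signal was 0.11, -0.11 and -0.13 in the 3 +Fe arrays and 5.65, 5.61 and 5.76 in the 3 -Fe arrays. The groups were far apart, and the rise was 5.72 ± 0.16 in log2, or 52.6-fold (adjusted p = 9.53e-12). F6'H1, the hydroxylase that opens the coumarin branch ahead of S8H, stood at 0.70, 0.54 and 0.83 on +Fe and at 2.24, 2.24 and 2.38 on -Fe. Its rise was 1.60 ± 0.10 (3.02-fold), with no overlap between the media. BGLU42, a beta-glucosidase that releases coumarins from their glucosides, stood at 0.00, -0.20 and -0.07 on +Fe and at 2.43, 2.45 and 2.55 on -Fe, a rise of 2.56 ± 0.14 (5.92-fold).

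Other enzymes of phenolic metabolism rose with them. UGT72E1, a glucosyltransferase of lignin precursors, read -0.27, -0.50 and 0.15 on +Fe and 2.46, 2.42 and 2.60 on -Fe, which was 2.70 ± 0.14 higher. HCT, which acts at the branch point of the phenylpropanoid pathway, rose by 0.67 ± 0.08. COSY, which closes the coumarin ring, rose by 0.47 ± 0.13 (adjusted p = 0.0386), a call that was lost at an adjusted p of up to 0.159 when single arrays were left out. Of the 9 measured of 21 phenylpropanoid and coumarin genes, 6 rose (2.87% of all probe sets did), 0 fell and the median change was 0.67, against 0 over all probe sets. The remaining 3 were UGT72E2 (0.26 ± 0.10), UGT72E3 (-0.07 ± 0.15) and F6'H2 (0.04 ± 0.14). UGT72E2 and UGT72E3 encode close relatives of UGT72E1, and F6'H2 one of F6'H1.

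Every measured gene of the iron acquisition list rose, against 2.87% of all probe sets. This list had 15 genes, of which 5 were measured, by 6 probe sets, and it shares S8H, F6'H1 and BGLU42 with the list above. The other measured members were BTSL1 and BTSL2, ubiquitin ligases with an iron-binding domain that restrain the response. No gene for soil acidification, ferric iron reduction or iron import was among the 5 measured. BTSL1 was measured by 2 probe sets that differed little, with rises of 2.18 ± 0.28 and 2.11 ± 0.12. BTSL2 read 0.88, 0.87 and 0.85 on +Fe and 2.02, 2.04 and 2.07 on -Fe, a rise of 1.18 ± 0.12. The median change of the 6 probe sets was 2.14.

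Among the regulators of the iron response, 3 of 9 measured genes rose, of 21 in the list, against 2.87% of all probe sets. BHLH101, a bHLH factor of subgroup Ib that is induced when iron is short, stood at -1.58, -1.66 and -1.55 on +Fe and at 1.37, 1.72 and 1.72 on -Fe. It rose by 3.20 ± 0.18 (9.20-fold, adjusted p = 3.69e-08). IMA1, which encodes a small peptide that promotes iron uptake, stood at -1.18, -1.12 and -1.92 on +Fe and at 1.22, 1.33 and 1.37 on -Fe.

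Replicate 3 of mutant +Fe was the lowest IMA1 value of the 6 arrays. The rise was 2.71 ± 0.21 (6.55-fold), and 2.46 without that array. PYE, a bHLH repressor of iron storage and distribution genes, read -0.72, -0.89 and -0.62 on +Fe and 0.33, 0.44 and 0.35 on -Fe, a rise of 1.11 ± 0.09. The upstream bHLH factors of the network had small estimates and were not called: ILR3 at 0.16 ± 0.08, BHLH115 at 0.07 ± 0.08, BHLH121 at 0.00 ± 0.11, BHLH104 at -0.13 ± 0.08 and BHLH34 at -0.20 ± 0.14. BHLH20, named NAI1 in the reference, was at 0.10 ± 0.17. The median of the 9 regulators was 0.10.

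Metal transport outside iron uptake was led by MTP8, a vacuolar manganese transporter. It read -0.02, 0.35 and 0.02 on +Fe and 4.34, 4.53 and 4.57 on -Fe, a rise of 4.37 ± 0.12 (20.6-fold, adjusted p = 1.08e-11). ZIP9, of the zinc and iron transporter family, rose by 0.49 ± 0.11 (adjusted p = 0.0185), a call that was lost at an adjusted p of up to 0.0946 when single arrays were left out. The remaining measured members were not called, and lay between -0.28 ± 0.11 (ZIP6) and 0.07 ± 0.09 (MTP11), with the MTP8 relatives MTP9 and MTP10 at -0.23 ± 0.13 and -0.19 ± 0.10. In all, 2 of 6 measured members of 26 rose, against 2.87% of all probe sets, and 0 fell. With ZIP9 left aside, MTP8 was the 1 rise called under each array left out.

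Of the 4 measured of 19 genes for copper and iron redox proteins, 1 rose and 1 fell, against 2.87% and 4.24% of all probe sets. CCS, the chaperone that loads copper into superoxide dismutase, rose by 0.56 ± 0.09, and was at 0.43 (adjusted p = 0.0662) with the 5′ minus 3′ covariate. TAPX, the thylakoid ascorbate peroxidase, a heme enzyme, fell by 0.43 ± 0.11 (adjusted p = 0.0259). The stromal enzyme SAPX was at -0.43 ± 0.13 (adjusted p = 0.0647), and the sulfite reductase gene SIR at -0.26 ± 0.11. Of the 3 measured of 11 iron-sulfur assembly genes, 1 fell, against 4.24% of all probe sets. This was HCF101, a chloroplast scaffold needed for photosystem I, at -0.37 ± 0.10 (adjusted p = 0.0403). ISU1 and NFS2 were not called. The calls of TAPX and HCF101 were lost when some single arrays were left out, at an adjusted p of up to 0.126 and 0.176. Both were also lost with the covariate (adjusted p = 0.172 and 0.0987), whereas SAPX was called with it (-0.67, adjusted p = 0.0274).

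**Figure D2:**
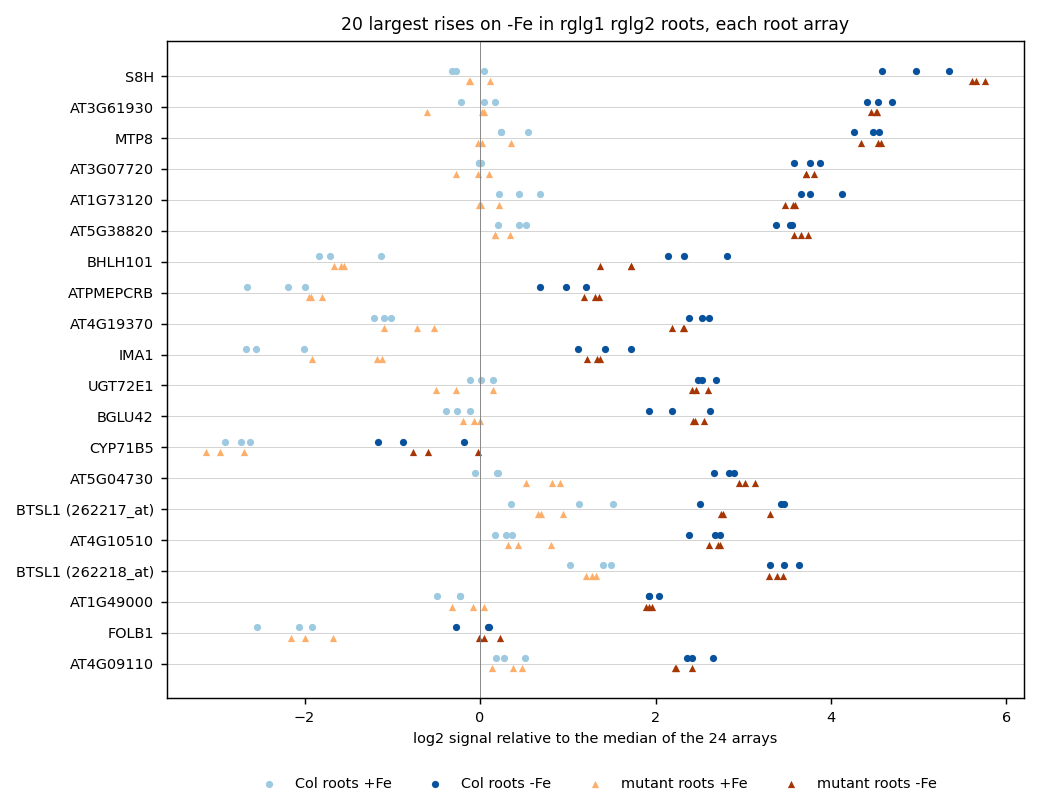
The 20 largest named rises on -Fe in mutant roots, as the log2 signal of each root array relative to the median of the 24 arrays (mutant as triangles, Col as circles). A place among the 20 required no overlap of the media in the mutant arrays, and the rises run from 5.72 (S8H) to 1.95 (AT4G09110). Over all probe sets, 14.4% had all -Fe arrays above all +Fe arrays.

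Beyond the iron lists, the largest rises belonged partly to genes that the reference gives no symbol. AT3G61930 read 0.05, 0.02 and -0.60 on +Fe and 4.46, 4.51 and 4.52 on -Fe, a rise of 4.68 ± 0.15 (25.6-fold). AT3G07720 rose by 3.82 ± 0.11 (14.1-fold), AT1G73120 by 3.47 ± 0.13 (11.1-fold) and AT5G38820 by 3.44 ± 0.10 (10.8-fold). ATPMEPCRB, which encodes pectin methylesterase 41, a cell wall enzyme, read -1.93, -1.80 and -1.95 on +Fe and 1.19, 1.31 and 1.36 on -Fe.

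That made ATPMEPCRB 9.07-fold higher (log2 3.18 ± 0.15). CYP71B5, a cytochrome P450, rose by 2.47 ± 0.22, and FOLB1, a dihydroneopterin aldolase of folate synthesis, by 2.03 ± 0.16. AT4G19370 (3.05 ± 0.12), AT5G04730 (2.28 ± 0.11), AT4G10510 (2.17 ± 0.13), AT1G49000 (2.04 ± 0.11) and AT4G09110 (1.95 ± 0.12) completed the 20 largest named rises. All 20 were called when any single root array was left out, and all 20 with the 5′ minus 3′ covariate. Probe sets without a single named gene rose as much or more: 253502_at by 7.42 ± 0.23, 254550_at by 5.86 ± 0.19 and 262091_at by 5.44 ± 0.17.

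AT1G52820, whose product belongs to the 2-oxoglutarate-dependent oxygenases, fell most. It read 2.31, 3.45 and 2.63 on +Fe and 0.14, 0.30 and 0.41 on -Fe, a change of -2.51 ± 0.24 (5.71-fold lower, adjusted p = 9.99e-06). The +Fe arrays spread over more than 1 log2 unit but all lay above the -Fe arrays, as the choice of the named falls required. AT3G13840, a gene of the GRAS family of plant regulators, read 2.11, 2.31 and 1.87 on +Fe and -0.03, 0.12 and 0.04 on -Fe, a change of -2.05 ± 0.18.

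AT3G49160, of the pyruvate kinase family, read 0.40, 0.69 and 0.45 on +Fe and -0.65, -0.85 and -0.99 on -Fe, a change of -1.34 ± 0.14. AT3G43670, of the copper amine oxidase family, changed by -1.28 ± 0.11. AT1G62510 and AT5G20790 changed by -1.53 ± 0.14 and -1.44 ± 0.16. The other 14 of the 20 largest named falls lay between -1.14 and -1.0, so the falls were nearly level after the first few. Of the 20, 17 were called when any single root array was left out. The exceptions were AT3G59370, AT4G12490 and AT4G04990, at an adjusted p of up to 0.0651, 0.0873 and 0.0554.

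With the 5′ minus 3′ covariate 15 of these 20 falls were called. AT3G59370 was among those lost: its +Fe values were 3.33, 3.45 and 2.49 and its -Fe values 2.05, 2.21 and 1.86, and its change of -1.05 ± 0.22 became -0.45 (adjusted p = 0.202). The unnamed probe sets 267626_at, 247678_at and 260546_at changed by -1.95 ± 0.15, -1.83 ± 0.12 and -1.46 ± 0.17.

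**Figure D3:**
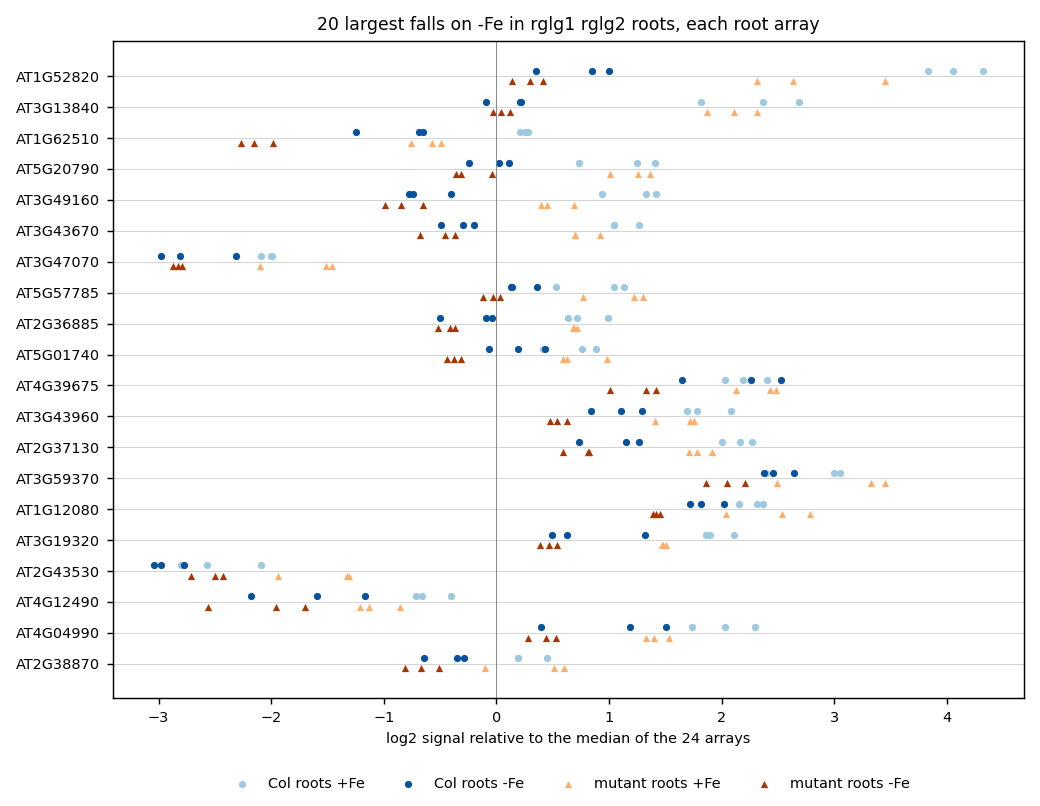
The 20 largest named falls on -Fe in mutant roots, as the log2 signal of each root array relative to the median of the 24 arrays (mutant as triangles, Col as circles). The fall of AT1G52820 is the largest at -2.51, and most of the others lie near -1. Over all probe sets, 14.9% had all -Fe arrays below all +Fe arrays.

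Genes of the photosynthetic apparatus were lower on -Fe although the tissue was root. Of 8 measured genes, 6 fell, against 4.24% of all probe sets, and 0 rose, with a median of -0.66 against 0 over all probe sets. PSAN, a photosystem I subunit, read -1.82, -1.46 and -1.82 on +Fe and -2.61, -2.76 and -2.59 on -Fe, a change of -0.95 ± 0.13. PSAE1 of the same complex changed by -0.89 ± 0.14. The photosystem II subunit genes PSBY and PSBW changed by -0.76 ± 0.11 and -0.70 ± 0.12, and ATPC1 of the chloroplast ATP synthase by -0.61 ± 0.14.

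RCA, the Rubisco activase gene, changed by -0.60 ± 0.15 (adjusted p = 0.029), and the antenna genes LHCB4.1 and LHCB4.2 were not called, at -0.23 ± 0.12 and -0.52 ± 0.16. The list also served as the marker of green tissue. Its summed log2 signal was -17.09, -16.53 and -16.63 on +Fe and -21.77, -22.97 and -21.28 on -Fe, so the sums of the media did not overlap. A sum does not show a change of each member. In Col roots the sums ran from -16.78 to -15.37 on +Fe and from -23.7 to -19.95 on -Fe, with 7 of 8 genes lower. The calls of RCA and ATPC1 were lost after quantile normalization (RCA at -0.38 with adjusted p = 0.138) and when some single arrays were left out, at an adjusted p of up to 0.134 and 0.0854, whereas PSAN, PSAE1, PSBY and PSBW were also called without any single root array. Whether the roots of the media differed in their content of green tissue was not tested.

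Other pathways were covered by so few measured genes that, with 7.11% of all probe sets called, a count of 0 calls is near the background. None of the 7 measured of 24 tetrapyrrole genes, which lead to heme and chlorophyll, was called, with estimates from -0.25 to 0.19. Of the auxin list, GH3.3 (0.34 ± 0.20), IAA29 (0.04 ± 0.15) and GH3.5 (-0.01 ± 0.11) were measured and not called. The root hair genes EXPA7 (0.16 ± 0.11) and EXPA18 (0.06 ± 0.13), the root hair repressor gene TRY (-0.09 ± 0.13) and the ethylene regulator gene EIN3 (0.12 ± 0.10) were not called. Of 4 measured cold and dehydration genes (4.24% of all probe sets fell), COR15A and COR47 fell, by 0.42 ± 0.11 and 0.37 ± 0.10, and both calls were lost when some single arrays were left out. No gene of the lists of iron distribution and storage, the methionine cycle or phosphate starvation had a probe set with 1 named gene.

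In the gene families that had a call and are described here, the called members were single genes or pairs in each direction. Families were searched by gene symbol and synonym. Genes without a family name among these were missed, so the counts may cover only part of each family. The shares called lay between 9.09% and 33.3%, in families of 3 to 44 probe sets, against 7.11% of all probe sets. Of 44 UDP-glycosyltransferase probe sets, UGT72E1 and UGT73D1 (0.82) rose and UGT88A1 (-0.36) and UGT74F1 (-0.33) fell. Among 15 expansins, which loosen cell walls, EXPA4 rose by 0.53 and EXPA8 changed by -0.48. Of 12 glutathione transferases GSTU25 rose by 0.68 and GSTU27 changed by -0.40. WRKY22 was the 1 of 6 WRKY factor genes found by name that was called (0.46), and XTH32 the 1 of 9 xyloglucan endotransglucosylases (-0.28). AT5G64120 was the 1 called of the 6 class III peroxidase genes found by name, with a change of -0.57 ± 0.13. LHCB4.3 was the 1 called of 3 antenna probe sets found by name, at -0.50 ± 0.14.

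**Figure D4:**
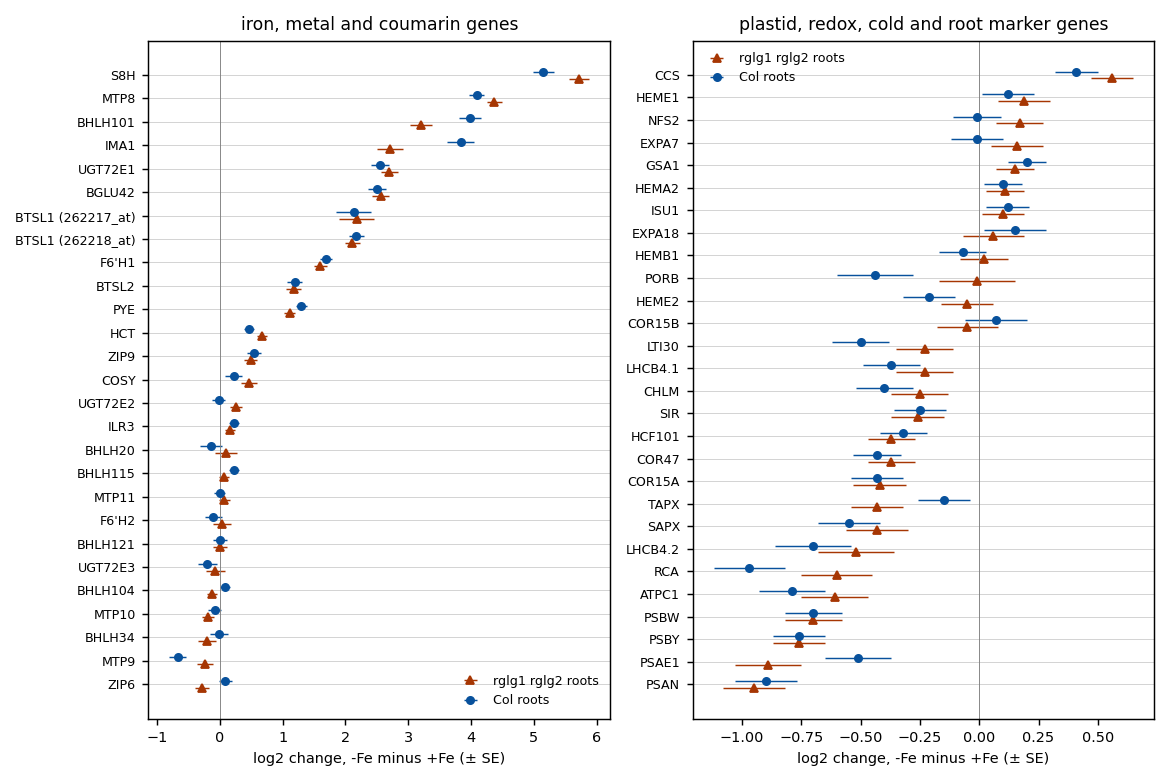
Log2 change (-Fe minus +Fe, with SE bars) of measured list genes in mutant roots (triangles) and Col roots (circles), with iron, metal and coumarin genes on the left and plastid, redox, cold and root marker genes on the right, on different scales. The mutant values run from 5.72 (S8H) to -0.28 (ZIP6) on the left and from 0.56 (CCS) to -0.95 (PSAN) on the right.

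The same comparison in Col roots, which shares no array with that in the mutant, called 921 probe sets (5.17%), of which 392 were higher (2.2%) and 529 lower (2.97%). Of the 104 strong rises in the mutant, all 104 had the same sign in Col, as 63.7% of all probe sets did, and 101 were called there. Their median was 1.5 in the mutant and 1.59 in Col. Of the 37 strong falls, all 37 had the same sign in Col and 25 were called, with medians of -1.11 and -0.96. Because these probe sets were chosen on the mutant, their size there is favoured. Chosen on Col instead, the 105 strong rises (0.59%) had a median of 1.65 in Col and 1.45 in the mutant, and the 55 strong falls (0.309%) had -1.23 and -0.8. All 20 of the largest named rises were called in Col, and 10 of them had the larger estimate in the mutant. Of the 20 largest named falls, 15 were called in Col, and 13 had the larger fall in the mutant.

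**Figure D5:**
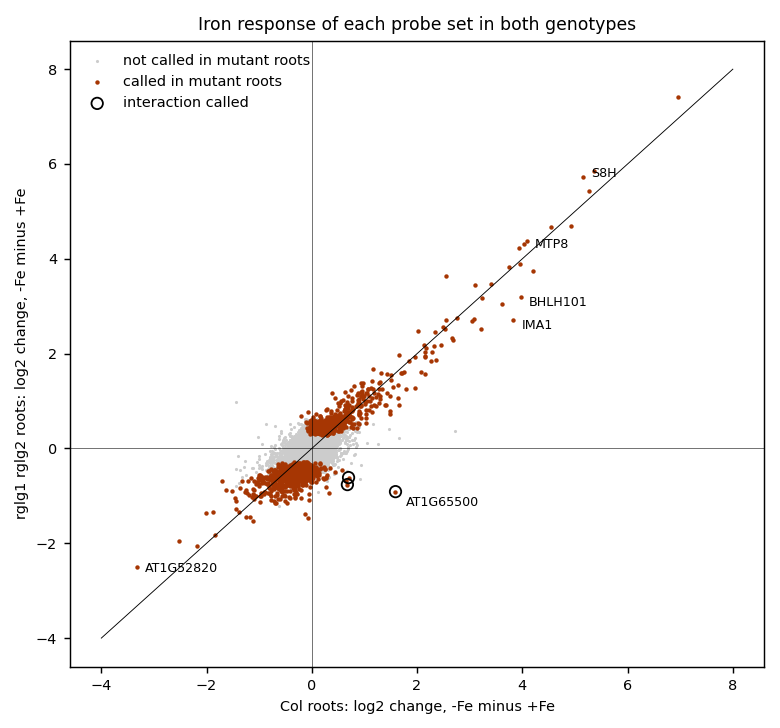
Log2 change on -Fe in mutant roots against that in Col roots, each point a probe set, brown where called in mutant roots, with a line of equal change and circles at the called interactions. The strong rises have the same sign in both genotypes, and the 3 probe sets of the called interaction rise in Col and fall in the mutant.

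The genotype by iron interaction (mutant change minus Col change) tested the difference itself. It called 3 probe sets (0.0168%), all lower, while 1382 had an unadjusted p under 0.05. Without replicate 3 of mutant +Fe it called 387, of which 160 were higher and 227 lower, and with array weights 393, of which 170 were higher and 223 lower. The median SE of an interaction was 0.16, so small differences were not detectable with 3 arrays a group. AT1G65500 read 0.07, -0.07 and -0.39 in mutant +Fe and -0.93, -0.99 and -1.21 in mutant -Fe. In Col it read -3.33, -2.72 and -2.68 on +Fe and -1.11, -1.01 and -1.83 on -Fe. The mutant was thus far above Col on +Fe, and the -Fe arrays of the genotypes overlapped.

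The response of AT1G65500 was -0.91 ± 0.21 in the mutant and 1.59 ± 0.21 in Col, an interaction of -2.50 ± 0.30 (adjusted p = 0.0118). The call was lost without mutant +Fe replicate 1 (adjusted p = 0.0788), mutant +Fe replicate 2 (0.0918) or mutant -Fe replicate 3 (0.0595), and with the 5′ minus 3′ covariate (-2.11, adjusted p = 0.192). AT4G15690, of the glutaredoxin family, read -0.38, -0.72 and -0.56 in mutant +Fe and -1.18, -1.33 and -1.44 in mutant -Fe, against -1.69, -2.0 and -1.43 and then -0.84, -1.30 and -0.95 in Col. It also started higher in the mutant, and its interaction was -1.44 ± 0.21 (adjusted p = 0.0496).

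AT3G46880 read 0.74, 0.47 and 0.25 in mutant +Fe and 0.07, -0.14 and -0.32 in mutant -Fe, and in Col -0.08, 0.10 and 0.08 and then 0.77, 0.60 and 0.83. Its interaction was -1.31 ± 0.18 (adjusted p = 0.0376). The calls of AT4G15690 and AT3G46880 held in 3 and 4 of the 12 fits that left out 1 root array, and both were lost with the covariate (adjusted p = 0.192 and 0.544). The unnamed probe set 260546_at was at -0.08 in Col, with an interaction of -1.38 (adjusted p = 0.0908). Among named genes the next was AT1G06830, at -0.69 ± 0.16 in the mutant and 0.65 ± 0.16 in Col (interaction -1.34, adjusted p = 0.0908), and AT2G25510, with an interaction of -1.26 (adjusted p = 0.503). AT4G15700, the locus next to AT4G15690, had estimates of -0.65 in the mutant and 0.24 in Col (interaction -0.89, adjusted p = 0.352). Whether their probe sets share signal was not tested.

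For the measured iron genes, no difference of the iron response between genotypes was called. For S8H the interaction was 0.57 ± 0.22 (adjusted p = 0.595), for IMA1 -1.12 ± 0.30 (adjusted p = 0.458) and for BHLH101 -0.78 ± 0.26 (adjusted p = 0.563). In MTP8 it was 0.28 (adjusted p = 0.692), and in BTSL2 -0.01 (adjusted p = 0.995). Among genes called in mutant roots, the most positive estimates belonged to AT1G52820 (0.82), AT3G52640 (0.68), AT4G16490 (0.65), AT4G30130 (0.63) and AT2G39130 (0.60), none of them called. AT4G39675 changed by -1.09 ± 0.19 in the mutant and was at -0.06 ± 0.19 in Col, with an interaction of -1.03 (adjusted p = 0.447).

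Leaves of the mutant showed which root changes were also found in the shoot. In a fit of all 24 arrays the iron response of mutant leaves was called for 207 probe sets (1.16%), of which 58 were higher (0.326%) and 149 lower (0.837%), and its difference from the root response for 330 (1.85%). Of the 104 strong root rises, 14 were called in the same direction in leaves, 1 in the opposite direction, and 82 differed between tissues. Of the 37 strong falls the counts were 6, 1 and 18. Because both sets were chosen on a strong root change, which is part of the tissue difference, their counts of tissue differences are favoured. Replicate 3 of the mutant leaf groups stood apart: the correlation between replicates 1 and 2 was 0.967 in +Fe leaves and 0.956 in -Fe leaves, and that of replicate 3 with either was at most 0.905 and 0.872. Without it 367 leaf responses were called (2.06%), and the counts were 16, 1 and 81 for rises and 7, 2 and 22 for falls.

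S8H was at -0.10 in mutant leaves, and the tissues differed by 5.81 (adjusted p = 1.18e-13). MTP8 was at 0.27. IMA1 rose more in leaves than in roots, by 5.66, with a root minus leaf difference of -2.95 (adjusted p = 0.000413). BHLH101 rose by 4.62 and PYE by 1.48 in leaves. Of the 2 BTSL1 probe sets, which matched in roots, 262218_at was at 1.60 in leaves and 262217_at at -0.04. AT3G49160, AT2G36885 and AT3G43670 fell in both tissues, with leaf changes of -3.42, -2.54 and -2.30.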

How the data were processed

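Total RNA was hybridised to 24 ATH1 arrays as biotinylated cRNA, per the labels' protocols. The deposited table holds log2 values per probe set. They came from RMA, per the submitters' processing notes, which give no version. Every probe set's median over the 24 arrays is 0 within 5e-07. For the time of this centring and the choice of probe sets, nothing is given in the sources used here. The number of arrays limits the precision.

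All 24 columns were matched to samples by label, and 0 were left unmatched. Of 17854 probe sets, 44 controls were left out and 17810 tested. Of these, 9869 had 1 named gene, 353 several and 7588 none. Of the named, 9822 matched the reference annotation (TAIR10.1, used for names and neighbours only). The symbols S8H, BTSL1, BTSL2, IMA1, MTP8, MTP9, MTP10, COSY and RGLG5 come from the gene lists, since the reference holds only their locus codes.

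The 12 root arrays were fitted in limma 3.58.1 (R 4.3.3) with 1 mean per group and 8 residual degrees of freedom, a procedure tested on simulated data. All adjusted p-values in the text are limma's. Leaf values come from a fit of all 24 arrays. The genes and lists were chosen with earlier results of these data known. Named genes were the 20 largest called rises and 20 largest called falls with 1 named gene and no overlap between media, the 3 largest unnamed probe sets in each direction, all measured genes of the iron lists, called members of other lists, the called interactions, and the 5 most extreme interaction estimates in each direction among probe sets with 1 named gene called in mutant roots. AT4G15700 was added after its values were seen. Family lists were built from gene descriptions, and those whose search caught unrelated names (such as cyclophilins among cytochromes P450) are not reported. Promoter motifs were planned but not analysed here.

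Replicate numbers were not used as pairs: deviations of mutant root arrays with the same number correlated at 0 to 0.05, and with different numbers at -0.08 to 0.06. In Col roots the same-number values were 0.17, -0.08 and 0.42, and different numbers ran from -0.48 to 0.45. Whether the numbers mark shared batches was not settled. Alternatives were the arrays fitted, array weights, quantile normalization, array medians at 0, a replicate block, robust eBayes, a minimum log2 change of 1 and each root array left out. A covariate for the 5′ and 3′ controls, the 8 root arrays numbered 1 and 2, and mutant leaves without replicate 3 were added after seeing the data.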

Additional observations from a re-analysis of the deposited data

Results flagged for a closer look

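The iron response differed between genotypes for 3 genes by the interaction test of limma. AT1G65500 had an interaction of -2.50 in log2 (adjusted p = 0.0118), with a fall in mutant roots and a rise in Col roots. For AT4G15690 it was -1.44 (adjusted p = 0.0496), and for AT3G46880 it was -1.31 (adjusted p = 0.0376), with the same directions. The 3 calls held in 9, 3 and 4 of the 12 fits that left out 1 root array, in that order. All 3 were lost with the 5′ and 3′ control covariate (adjusted p = 0.192, 0.192 and 0.544). The call of AT4G15690 was also lost with all 24 arrays (adjusted p = 0.562) and with robust eBayes (adjusted p = 0.0521).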

How the results depend on the processing

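All 1266 changes called in mutant roots kept their direction under each alternative fit, but this was largely fixed in advance. Several of the fits left the difference of the mutant group means unchanged. Of the 511 rises and 755 falls, 510 and 752 had no overlap between media, so leaving out 1 array could not reverse them. Over all probe sets, 14.4% had all -Fe arrays above all +Fe arrays and 14.9% had them all below. Of the 1266, 466 were called in every fit that left out 1 root array (229 higher, 237 lower). Of 72 named probe sets called, 48 were called under every alternative and 0 reversed. The count of 1266 became 594 with all 24 arrays, 5097 with array weights, 441 with the 5′ and 3′ control covariate, 3423 with the 8 root arrays numbered 1 and 2, and 141 with a minimum log2 change of 1, and it ran from 592 to 3315 with 1 array left out. The Col count of 921 became 602 with only the 6 arrays compared, 514 with all 24 arrays, 1578 with array weights and 160 with a minimum log2 change of 1, and it ran from 612 to 1108 with 1 array left out. For the interaction the count moved from 3 to 393 with array weights, 0 with the covariate and 16 with the 8 arrays, and it ran from 0 to 387 with 1 array left out. The cause was not tested. With replicate number as a block the mutant count was 1298 and the interaction count 4, and with a block within genotype 1480 and 7. Whether the numbers pair the samples was not settled. The share of higher calls was 40.4%, 47.5% after quantile normalization, 33.2% with array medians at 0, 49.3% with array weights, 49.8% without mutant +Fe replicate 3, 50.8% with the 8 arrays and 54.2% with the covariate.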
